A study of Mus musculus with 24 samples.

Results

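Solute carriers are the large group of membrane proteins that move amino acids, sugars, metals, ions, nucleosides, vitamins and organic acids across the cell surface and across the membranes of mitochondria, lysosomes, the endoplasmic reticulum and the Golgi. The genes described here are the protein-coding ones on numbered chromosomes or X whose symbol begins with Slc and a number, or with Slco, and whose mean over 24 libraries reached at least 50 normalized counts. The members were thus chosen by their mean level over all libraries, 163 genes of 385, out of 47372 gene entries in all. A further 8 carriers were left out by name (Slc2a1, Slc7a2, Slc7a11, Slc11a1, Slc11a2, Slc16a1, Slc16a3 and Slc40a1), and 214 fell under the level, 13 of them with 0 counts in every library. Just inside it were Slc25a42 (mean 50.2), Slc26a6 (50.7) and Slc6a20b (53.0), and just outside Slc25a53 (49.4), Slc5a6 (49.0) and Slc25a35 (46.8). Of the members, 2 reached the level only through libraries treated with KLA, Slc39a4 (mean 48.8 without those libraries) and Slc22a4 (48.0), so these 2 had to be higher with KLA. Both were called higher in each genotype and are in all counts of members called higher below. Another 6 had a mean under 50 in the KLA libraries and reached the level through the other libraries. These 6, Slc7a15 and Slco2b1 among them, had to be lower with KLA than in the mean of the other libraries. Any of them called lower are in the counts below. Members at low levels that are called lower below may be among them, also where this is not said.

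Most carriers take their direction from gradients: some exchange one solute for another, some use the sodium or proton gradient, and some let a solute pass down its own gradient. In macrophages they are known for supplying amino acids and metals, for handling what lysosomes release from digested material, and for exchanging metabolites between mitochondria and cytosol. A few need a partner protein to reach the membrane, such as the heavy chain Slc3a2 for the amino acid exchangers of the Slc7 family.

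RNA was sequenced from bone marrow cells of C57BL/6J mice, 8 to 12 weeks old, that had been turned into macrophages in medium conditioned by L929 cells. There were 3 mice with LXR (LXR positive) and 3 DKO mice lacking both LXRα and LXRβ, the nuclear receptors for oxidized cholesterol. The cultures of every animal were split among vehicle, 100 ng/ml KLA (a purified lipid A that activates TLR4), 1 µM GW3965 (a synthetic LXR agonist) and 50 µg/ml AcLDL (acetylated low-density lipoprotein, a cholesterol load taken up by scavenger receptors), which made 8 groups of 3 libraries. Vehicle, KLA and GW3965 were given on day 5 for 17 hours, and the labels give no duration for AcLDL. The labels name no cell type or promoter to which the deletion is limited. Library 1, 2 and 3 of a genotype were taken to be the same 3 mice under each treatment. The library titles give the number but do not name the mouse.

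Whole gene counts recovered from the deposited values summed to 6448579 to 17348717 in LXR-positive and 9705391 to 27189081 in DKO libraries. These ranges overlap only over all treatments together. Within each treatment every DKO library had more counts than every LXR-positive library. With vehicle the sums were 10540385 to 17348717 in LXR-positive and 20659071 to 27189081 in DKO libraries. Depth and genotype thus cannot be told apart here. The counts cover what was assigned to genes, not all reads of a library. Summed macrophage markers (10 genes, all detected) lay between 205757 and 474623 normalized counts in every library, at 292153 to 376085 with vehicle and 401102 to 474623 with KLA in LXR-positive cells and 251616 to 274779 and 311995 to 350686 in DKO cells. Summed markers of neutrophils and their precursors (12 genes) were lower with KLA, 4630.1 to 4786 with vehicle against 2252 to 2679 in LXR-positive cells and 6477 to 9446 against 3340 to 7583 in DKO cells, where the ranges overlapped. Stromal markers (10 genes) reached 86.8 to 865 with vehicle in LXR-positive and 253 to 3776 in DKO libraries, lymphocyte markers (10 genes) 358 to 422 and 217 to 312, and with KLA the lymphocyte sum was 86.9 to 155 and 102 to 137. Sums of erythroid and megakaryocyte markers (8 genes), dendritic cell markers (8) and markers of mast cells, basophils and eosinophils (7) stayed at or under 1002, 161 and 139 normalized counts in each library. The part of these cells in the results was not tested, and in such bulk RNA fewer cells of a type and less RNA per cell cannot be told apart. The LXRβ gene Nr1h2 lay between 438 and 821 normalized counts in the 12 LXR-positive libraries and between 275 and 399 in the 12 DKO libraries. The LXRα gene Nr1h3 stood at 114, 176 and 114 normalized counts with vehicle and 870.2, 1267 and 546 with KLA in LXR-positive cells, and at 187, 176 and 179 and 751, 608 and 658 in DKO cells. These values count the whole gene, and no source here gives the deleted part, so they do not check the deletion.

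Levels per kilobase of exon, the scale on which genes can be compared, spanned from 5.47 for Slc22a15 to 1834 for Slc6a6, the taurine transporter. After it came Slc43a2, an exporter of large neutral amino acids (1466), Slc25a5, an ADP/ATP carrier of the mitochondrial inner membrane (1045), and Slc39a7, which releases zinc from the endoplasmic reticulum (775). Slc37a2, a sugar phosphate exchanger of the endoplasmic reticulum (751), Slc31a1, the copper importer CTR1 (724), and Slc48a1, which carries heme out of lysosomes (716), followed. Sorted by what they carry, 32 members are mitochondrial carriers, 23 carry amino acids or peptides, 22 zinc, copper, magnesium or other metals, and 22 inorganic ions or protons. Smaller classes hold 15 carriers of organic anions, cations and monocarboxylates, 11 of nucleotide sugars and related substrates, 10 of sugars, 10 of vitamins, choline, heme and lipids, and 5 of nucleosides. For 10 no substrate was assigned, and 3 genes were sorted as not being carriers despite their symbol, among them Slc9a3r1, a scaffold protein. The heavy chain Slc3a2, a partner protein, was sorted among the carriers.

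With KLA, 55 of the 163 genes were higher and 24 lower in cells with LXR, 79 in all, and in DKO cells 37 were higher and 25 lower, 62 in all. A gene was called when limma's test on log2(normalized count + 1), adjusted by Benjamini-Hochberg over all genes tested, gave an adjusted p under 0.05. The same rule called 28.6% of all 15957 genes tested in LXR-positive and 25.2% in DKO cells, and 34.6% and 31.7% of the 10731 genes with a mean of at least 50, the level the members had to reach. By direction, the members' shares were 33.7% higher and 14.7% lower in LXR-positive cells, where 20.6% and 14% of genes at that level were called. In DKO cells they were 22.7% and 15.3%, beside 18% and 13.7%. The members' median log2 difference was 0.22 and 0.09, against 0.06 and 0.05 over genes at that level. All 163 members passed the filter on low values. In both genotypes 32 genes were called higher and 18 lower, 19.6% and 11.0% of the members, beside 14.1% and 9.68% of genes at that level. Calls in opposite directions were 0 among the members and 6 among the 10731 genes at that level.

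**Figure D1:**
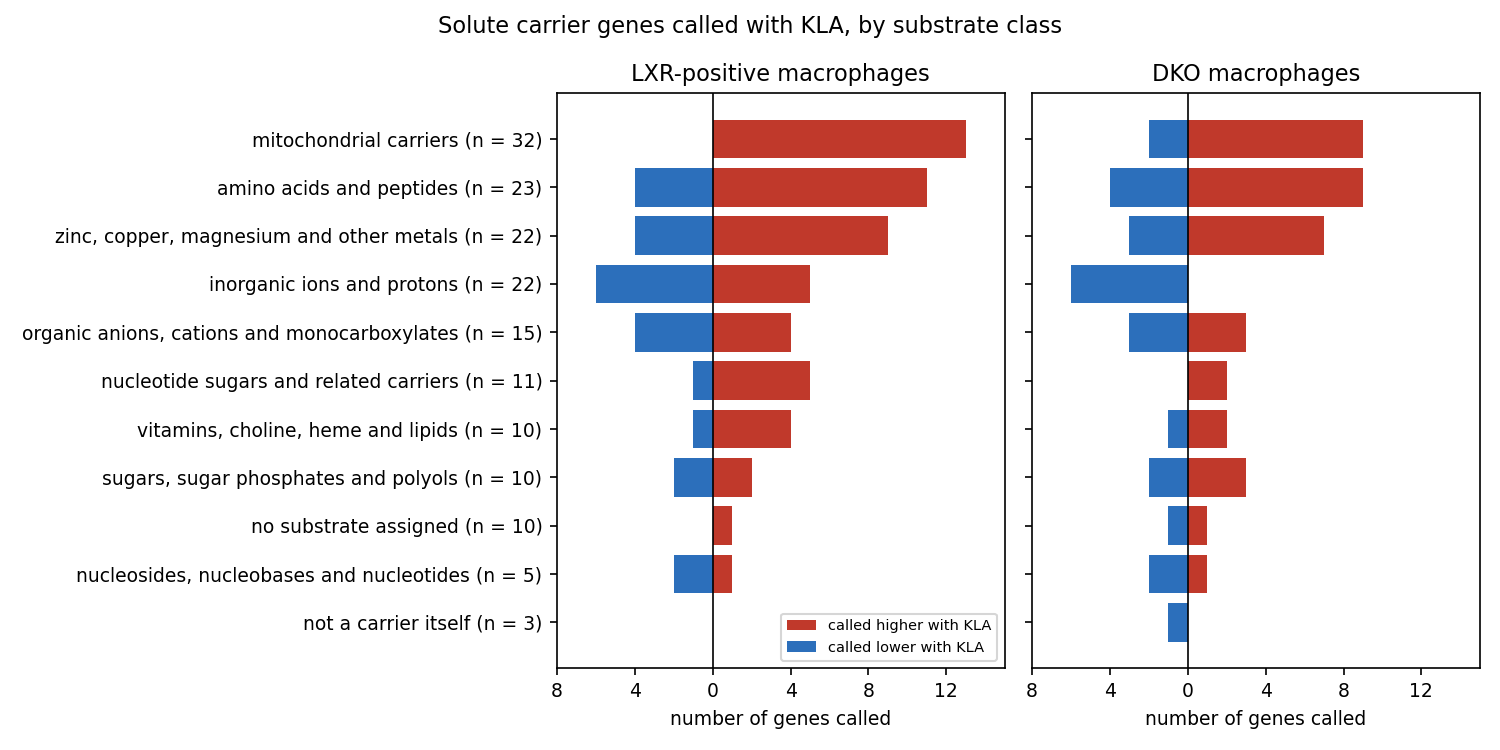
Number of solute carrier genes called with KLA (horizontal axis) in each substrate class (rows, n genes each), with genes called higher to the right and lower to the left of 0, for LXR-positive (left panel) and DKO macrophages (right panel). Mitochondrial carriers were called higher in 13 of 32 cases (40.6%) and lower in 0 in LXR-positive cells, and the class of inorganic ions had 6 genes lower (27.3%) in each genotype. Over genes with a mean of at least 50, 20.6% were called higher and 14% lower in LXR-positive cells, and 18% and 13.7% in DKO cells.

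Amino acid and peptide carriers had 11 of 23 members higher (47.8%) and 4 lower (17.4%) with KLA in LXR-positive cells. Genes at the members' level had 20.6% and 14% there. In DKO cells 9 were higher (39.1%) and 4 lower (17.4%), beside 18% and 13.7% (class median log2 difference 0.43 and 0.31). Slc6a12, the betaine and GABA transporter BGT1 (chromosome 6, 121343076 to 121365775 in GRCm38), stood at 102, 20.2 and 50.1 normalized counts with vehicle and 1152, 494 and 927 with KLA in LXR-positive cells of mice 1, 2 and 3, and at 33.4, 65.3 and 28.4 and 722, 558 and 537 in DKO cells. All 6 KLA libraries lay above all 6 vehicle libraries. It rose by a log2 difference of 4.07 ± 0.50 SE, adjusted p = 9.1e-05 in LXR-positive cells and 3.89 ± 0.50 SE, adjusted p = 0.00014 in DKO cells. Slc7a8, a light chain for large neutral amino acids, rose by 1.30 ± 0.13 SE and 1.36 ± 0.13 SE. It went from 688, 676 and 574 to 1808, 1698 and 1290.2 and from 622, 677 and 736 to 1753, 1724 and 1738 normalized counts. Slc7a1, the cationic amino acid transporter CAT1, stood at 133, 213 and 156 with vehicle and 393, 376 and 319 with KLA in LXR-positive cells (1.13 ± 0.23 SE, adjusted p = 0.0032). In DKO cells its groups overlapped, at 233, 258 and 138 and 244, 252 and 206 (0.20 ± 0.23 SE, adjusted p = 0.57).

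On the lower side, Slc7a15, of the family of amino acid exchanger light chains, went from 142, 74.7 and 83.1 to 18.3, 25.5 and 13.7 normalized counts in LXR-positive and from 108, 88.4 and 85.2 to 27.0, 24.0 and 11.0 in DKO cells. It fell by more than any other gene of the class, with log2 differences of -2.31 ± 0.36 SE and -2.21 ± 0.36 SE. Its direction was fixed by how it reached the level, since its KLA libraries lay under that level. Slc15a4, a lysosomal histidine and peptide carrier needed for signalling by Toll-like receptors of endosomes, went from 1224, 913 and 1125 to 313, 500.2 and 515 and from 732, 752 and 779 to 412, 279 and 311 (-1.32 ± 0.20 SE and -1.19 ± 0.20 SE). Its relative Slc15a3, in the same compartment, was called higher in both genotypes (1.04 and 1.06). Slc6a6, the member with the highest level, fell from 17818, 16154 and 15473 to 11174, 10631 and 12669.8 in LXR-positive cells and from 16302, 16236 and 15740.0 to 11609, 11108 and 12257 in DKO cells. Its log2 differences were small but larger than the spread between mice (-0.52 ± 0.10 SE, adjusted p = 0.0022, and -0.47 ± 0.10 SE, adjusted p = 0.0052).

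Metal carriers had 9 of 22 higher (40.9%) and 4 lower (18.2%) in LXR-positive cells, beside 20.6% and 14% of genes at the members' level. In DKO cells 7 were higher (31.8%) and 3 lower (13.6%), beside 18% and 13.7% (class median 0.30 and 0.15). Slc39a4, whose direction was fixed by how it reached the level, is among those higher in each genotype. Slc31a1, the copper importer, stood at 2627, 1944 and 2779 normalized counts with vehicle and 7616, 8070.1 and 7652 with KLA in LXR-positive cells, and at 1628, 1849.8 and 1913 and 5264, 5096 and 5347 in DKO cells. The lowest KLA library was above the highest vehicle library in each genotype (1.68 ± 0.13 SE, adjusted p = 2.2e-06, and 1.55 ± 0.13 SE, adjusted p = 4.7e-06). Its neighbour Slc31a2, a copper protein of endosomes and lysosomes, went from 936, 703 and 989 to 3183, 3926 and 2841 and from 599.8, 538 and 644 to 2721, 2238 and 2466. It rose by 1.92 ± 0.15 SE and 2.06 ± 0.15 SE. Both lie on the plus strand of chromosome 4, Slc31a2 at 62262562 to 62298411 and Slc31a1 at 62360727 to 62391769, 62316 bases apart.

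Zinc carriers changed in both directions. Slc39a10, a zinc importer of the cell surface, stood at 765, 834 and 904 with vehicle and 193, 316 and 393 with KLA in LXR-positive cells, and 801, 768 and 749.8 and 276, 332 and 245 in DKO cells, so it fell in both (-1.53 ± 0.21 SE and -1.45 ± 0.21 SE). Slc39a8, which imports zinc and manganese, fell from 148, 197 and 192 to 57.4, 68.9 and 86.5 and from 201, 226 and 177 to 55.5, 74.9 and 55.7 (-1.33 and -1.69). Slc30a4, which fills vesicles with zinc, fell by 1.14 and fell by 1.26 on the log2 scale. It is a member at a low level, so its direction may have been fixed by how it reached the level. The importer Slc39a14 (1.17 and 1.05) and Slc39a7 of the endoplasmic reticulum (1.06 and 0.92) were called higher in both genotypes. Slc39a4, the zinc importer that reached the level only through KLA libraries, had log2 differences of 1.18 ± 0.29 SE and 1.68 ± 0.29 SE.

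**Figure D2:**
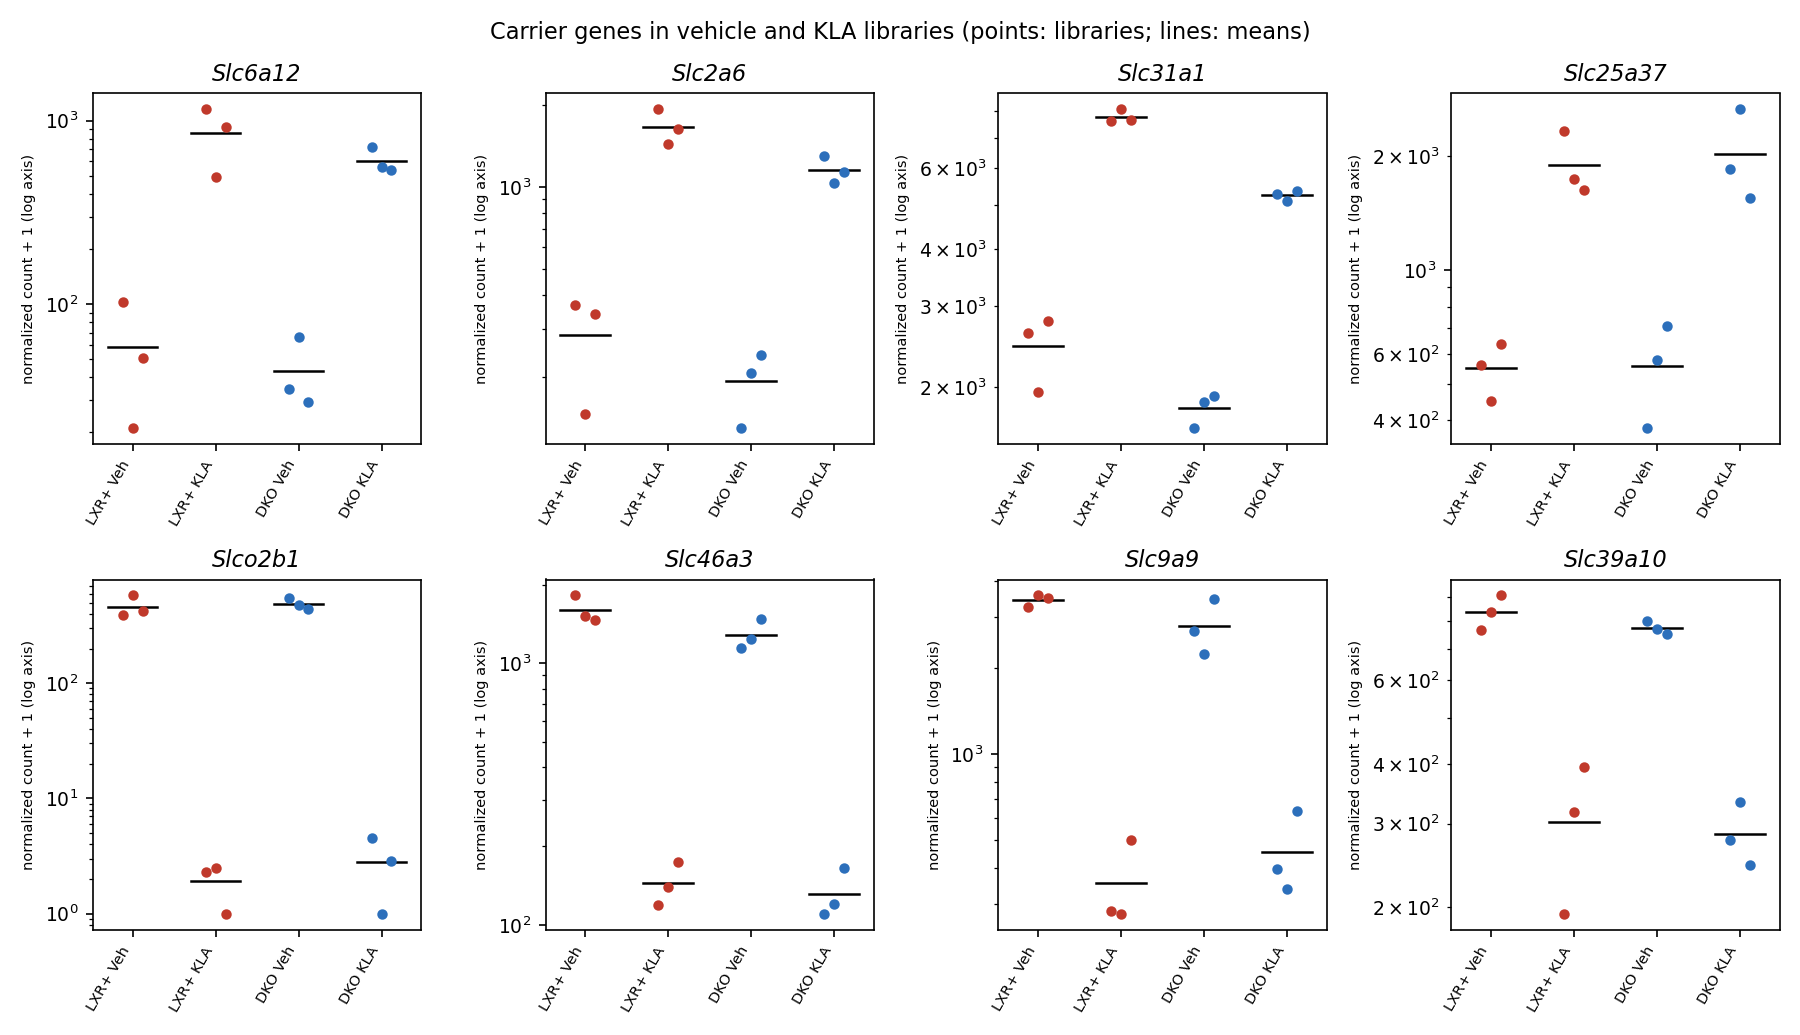
Normalized counts + 1 on a log axis for 8 carrier genes (panels) in LXR-positive (LXR+, red) and DKO (blue) libraries with vehicle (Veh) or KLA, with 1 point per mouse and a line at the mean of 3. In the upper row (Slc6a12, Slc2a6, Slc31a1, Slc25a37) every KLA point is above the vehicle points of its genotype, and in the lower row (Slco2b1, Slc46a3, Slc9a9, Slc39a10) every KLA point is below them.

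Mitochondrial carriers had 13 of 32 higher (40.6%) and 0 lower in LXR-positive cells, beside 20.6% and 14% of genes at the members' level. In DKO cells 9 were higher (28.1%) and 2 lower (6.25%), beside 18% and 13.7% (class median 0.33 and 0.26). Slc25a37, mitoferrin-1, which brings iron into mitochondria, stood at 558, 449.8 and 637 normalized counts with vehicle and 2331, 1742 and 1627 with KLA in LXR-positive, and 382, 578 and 709.6 and 1850.5, 2658 and 1553 in DKO cells. It rose by 1.79 ± 0.25 SE and 1.87 ± 0.25 SE. Erythroid and megakaryocyte markers, of cells that also use mitoferrin-1, summed to 213 to 313 with vehicle and 287 to 1002 with KLA in LXR-positive cells and to 318 to 411 and 404 to 985 in DKO cells, and their part in this gene's change was not tested. Slc25a10, the dicarboxylate carrier that exchanges malate and succinate for phosphate, went from 459, 409 and 518 to 1312, 1387 and 1342 and from 324, 320.5 and 422 to 1327, 888 and 1319 (1.55 ± 0.17 SE and 1.71 ± 0.17 SE). Slc25a1, the citrate carrier that supplies cytosolic acetyl-CoA, went from 203, 191 and 242 to 638, 499 and 710.4 in LXR-positive cells and from 222, 293 and 232 to 376, 340.3 and 434 in DKO cells. It rose in both (1.52 ± 0.17 SE, adjusted p = 3.9e-05, and 0.63 ± 0.17 SE, adjusted p = 0.017). The DKO call ended without DKO vehicle library 1 or 3 or DKO KLA library 3 (adjusted p from 0.0514 to 0.0708). Slc25a5 rose by 1.21 ± 0.12 SE and 1.16 ± 0.12 SE.

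Slc25a3, the phosphate carrier and the mitochondrial member with the most counts, rose in LXR-positive cells by 0.41 ± 0.13 SE (adjusted p = 0.037), and that call ended without LXR-positive vehicle library 2 or LXR-positive KLA library 1, 2 or 3, and also with no filter on low values, in a fit of only the 6 libraries compared and with the mouse as a block (adjusted p from 0.0597 to 0.134). In DKO cells it was not called (0.25). The 2 members lower in DKO cells were Slc25a13, the aspartate-glutamate carrier (177, 156 and 141 with vehicle, 132, 55.5 and 97.9 with KLA), and Slc25a40, which imports glutathione into mitochondria (265, 219 and 251 and 205, 153 and 171). Their log2 differences were -0.81 ± 0.25 SE and -0.48 ± 0.15 SE there, and 0.05 and -0.05 in LXR-positive cells, where neither was called. The call of Slc25a13 ended without DKO vehicle library 1, 2 or 3 or DKO KLA library 2 or 3, and also with no filter on low values and in a fit of only the 6 libraries compared (adjusted p from 0.0509 to 0.120). That of Slc25a40 ended without DKO vehicle library 1 or 3 or DKO KLA library 2 or 3, and also with no filter on low values (adjusted p from 0.0575 to 0.121).

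Among the carriers of inorganic ions and protons, 5 of 22 were higher (22.7%) and 6 lower (27.3%) in LXR-positive cells. Genes at the members' level had 20.6% and 14% there. In DKO cells 0 were higher and 6 lower (27.3%), beside 18% and 13.7% (class median -0.04 and -0.07). Slc9a9, a sodium-proton exchanger of endosomes, stood at 3261, 3572 and 3507 with vehicle and 282, 277 and 501 with KLA in LXR-positive cells, and at 2687, 2238 and 3478 and 396, 337 and 632 in DKO cells. Every KLA library was below every vehicle library (-3.34 ± 0.26 SE, adjusted p = 3.1e-06, and -2.65 ± 0.26 SE, adjusted p = 1.9e-05). Slc9a7, the exchanger of the trans-Golgi, fell from 415, 357 and 376 to 137, 148 and 134 and from 302, 369 and 357 to 109, 149 and 140.2. Slc26a11, a sulfate and chloride transporter, fell from 739, 444 and 705 to 176, 171 and 150.3 and from 476, 598 and 546 to 127, 90.6 and 113. Their log2 differences were -1.45 ± 0.14 SE and -1.37 ± 0.14 SE for Slc9a7 and -1.89 ± 0.20 SE and -2.29 ± 0.20 SE for Slc26a11.

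The cation-chloride cotransporters, which set cell volume, differed among themselves. Slc12a2, the importer NKCC1, rose in LXR-positive cells from 149, 150.2 and 185 to 245, 253 and 270.2 (0.67 ± 0.17 SE) and overlapped in DKO cells, at 173, 191 and 119 and 161, 164 and 166 (0.05 ± 0.17 SE). Slc12a4, the exporter KCC1, was called higher in LXR-positive cells (0.53) and not in DKO cells (0.28), and Slc12a7 was called lower in both (-0.55 and -0.63). Slc9b2, a sodium-proton exchanger, was called in LXR-positive cells alone (0.67 ± 0.19 SE, adjusted p = 0.021), and that call ended without LXR-positive vehicle library 2 or LXR-positive KLA library 1 or 2, and also in a fit of only the 6 libraries compared (adjusted p from 0.0555 to 0.0769). Slc12a4 shares 361 exon bases with Gm16156 on the opposite strand, so its counts are uncertain.

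Carriers of organic anions, cations and monocarboxylates had 4 of 15 members higher (26.7%) and 4 lower (26.7%) in LXR-positive cells. Genes at the members' level had 20.6% and 14% there. In DKO cells 3 were higher (20%) and 3 lower (20%), beside 18% and 13.7% (class median -0.06 and -0.16). In each genotype these counts include Slc22a4 as higher and Slco2b1 as lower, whose directions were fixed by how they reached the level. Slco2b1, an uptake carrier for organic anions such as steroid sulfates (chromosome 7, 99657804 to 99711340), stood at 388, 577 and 422 normalized counts with vehicle and 1.30, 1.50 and 0 with KLA in LXR-positive cells. In DKO cells the values were 544, 474 and 442 and 3.56, 0 and 1.84. It was near 0 in all 6 KLA libraries, where the recovered counts were 1, 1 and 0 in LXR-positive and 5, 0 and 3 in DKO cells. Vehicle exceeded KLA by 502-fold (95% counting interval 139 to 4152) and by 250.5-fold (127 to 581), intervals that cover counting error only. It fell by more than any other member, with adjusted p = 5.5e-07 and 8.6e-07. That it was lower was fixed by how it reached the level, since its KLA libraries lay under that level. The fitted log2 differences, -7.99 and -7.69, depend on the pseudocount, and Slco2b1 shares 471 exon bases with Gm15635 on the opposite strand.

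Slco3a1, of the same family, went the other way, from 176, 106 and 210.2 to 521, 660.4 and 539 in LXR-positive and from 98.2, 109 and 219 to 845, 729 and 670.3 in DKO cells (1.85 ± 0.30 SE and 2.48 ± 0.30 SE). Slco6c1 fell in LXR-positive cells (-1.27 ± 0.20 SE, adjusted p = 0.00064) and missed the threshold in DKO cells (-0.54 ± 0.20 SE, adjusted p = 0.073), where DESeq2 (adjusted p = 0.0422), fits of all 24 libraries (0.0293) and of the 6 compared (0.0414), and limma without LXR-positive KLA library 1 (0.0461) or 2 called it. Slc13a3, a sodium-coupled carrier of succinate and other dicarboxylates, stood at 127, 177 and 269 with vehicle and 376, 1831 and 599.6 with KLA in LXR-positive cells, and 93.8, 33.8 and 91.1 and 1275, 478 and 1157 in DKO cells. The LXR-positive KLA library of mouse 2 was far above the other 2. It rose by 2.02 ± 0.58 SE (adjusted p = 0.021) and 3.73 ± 0.58 SE (adjusted p = 0.00059), and the first call ended without LXR-positive vehicle library 1 or 2 or LXR-positive KLA library 2 (adjusted p from 0.0521 to 0.0775).

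Slc16a7, the monocarboxylate transporter MCT2, fell from 1975, 1855 and 1689.9 to 1365, 1089 and 1035 and from 1427, 1728 and 1778 to 748, 959.8 and 1052 (-0.67 ± 0.15 SE and -0.84 ± 0.15 SE). Slc22a4, the ergothioneine transporter that reached the level through KLA libraries, stood at 46.4, 27.2 and 26.9 with vehicle and 226, 62.9 and 123 with KLA in LXR-positive cells (1.86). Its DKO value (1.22) lost its call without DKO vehicle library 1, 2 or 3 or DKO KLA library 1, 2 or 3, and also with no filter on low values (adjusted p from 0.0523 to 0.116). Slc22a15 was called lower in both (-0.85 and -0.70), and its DKO call ended without DKO vehicle library 1, 2 or 3 or DKO KLA library 3, and also with no filter on low values (adjusted p from 0.0625 to 0.150).

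Sugar carriers had 2 of 10 higher (20%) and 2 lower (20%) in LXR-positive cells, beside 20.6% and 14% of genes at the members' level. In DKO cells 3 were higher (30%) and 2 lower (20%), beside 18% and 13.7% (class median -0.16 and -0.14). Slc2a6, the lysosomal hexose transporter GLUT6, stood at 368, 146 and 339.7 with vehicle and 1927, 1436 and 1635 with KLA in LXR-positive cells, and 129, 205 and 240.3 and 1303, 1030.1 and 1131 in DKO cells. It rose by 2.65 ± 0.32 SE and 2.63 ± 0.32 SE, and all KLA libraries exceeded all vehicle libraries. Slc2a9, which carries urate, rose from 213, 234 and 214 to 424, 488 and 440.2 and from 173, 179 and 222 to 561, 473 and 492 (1.03 and 1.41). Slc37a2, the sugar phosphate exchanger and the member of the class with the most counts, fell from 5132, 5086 and 5357 to 2314, 2597 and 2567 and from 5333, 5057 and 4175 to 2289.9, 2115 and 2113 (-1.06 ± 0.10 SE and -1.15 ± 0.10 SE).

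The glucose transporter GLUT3, Slc2a3, fell in LXR-positive cells from 143, 132 and 169 to 61.3, 58.4 and 60.7 (-1.28 ± 0.19 SE, adjusted p = 0.00035), while in DKO cells the groups overlapped, at 156, 162 and 101 and 107, 95.2 and 99.2 (-0.44 ± 0.19 SE, adjusted p = 0.11). Without DKO vehicle library 3 it was called there too (log2 difference -0.66, adjusted p = 0.0158). Slc5a3, the sodium-coupled inositol transporter, fell in DKO cells (-1.46 ± 0.24 SE, adjusted p = 0.00092) and had -0.59 ± 0.24 SE, adjusted p = 0.091 in LXR-positive cells, where DESeq2 (adjusted p = 0.0435) and limma without vehicle library 3 (adjusted p = 0.0174) called it. It shares 159 exon bases with Mrps6 on its strand. Slc50a1, a glucose carrier of the Golgi, rose in DKO cells (0.55 ± 0.14 SE, adjusted p = 0.015), a call that ended without DKO KLA library 2 (adjusted p = 0.0642), and had 0.28 in LXR-positive cells.

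Carriers of nucleotide sugars, which supply the glycosylation enzymes of the endoplasmic reticulum and Golgi, had 5 of 11 higher (45.5%) and 1 lower (9.09%) in LXR-positive cells. Genes at the members' level had 20.6% and 14% there. In DKO cells 2 were higher (18.2%) and 0 lower, beside 18% and 13.7% (class median 0.38 and 0.14). Slc35b1, a nucleotide carrier of the endoplasmic reticulum, stood at 425, 318 and 448 with vehicle and 1145, 869 and 935 with KLA in LXR-positive, and 287, 341 and 326 and 748, 707 and 713 in DKO cells. It rose by 1.31 ± 0.15 SE and 1.18 ± 0.15 SE. Slc35d1, which carries UDP-glucuronic acid, rose by 0.89 ± 0.13 SE and 0.48 ± 0.13 SE, the second call ending without DKO vehicle library 3 or DKO KLA library 1 or 2 (adjusted p from 0.0696 to 0.0746). Slc35a2, the UDP-galactose transporter, rose in LXR-positive cells (1.11 ± 0.24 SE, adjusted p = 0.0041) and not by the test in DKO cells (0.47 ± 0.24 SE, adjusted p = 0.17). Without LXR-positive KLA library 2 it was called there as well (adjusted p = 0.0441). Slc35a5 was the member called lower (-0.45 ± 0.15 SE, adjusted p = 0.041, LXR-positive), and the call ended without LXR-positive vehicle library 1 or 2, LXR-positive KLA library 2 or 3, DKO vehicle library 2 or DKO KLA library 2, and also with no filter on low values and in a fit of only the 6 libraries compared (adjusted p from 0.0522 to 0.163).

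Of the 10 carriers of vitamins, choline, heme and lipids, 4 were higher (40%) and 1 lower (10%) in LXR-positive cells. Genes at the members' level had 20.6% and 14% there. In DKO cells 2 were higher (20%) and 1 lower (10%), beside 18% and 13.7% (class median 0.40 and 0.35). Slc46a3, a lysosomal carrier, stood at 1817, 1509 and 1466 with vehicle and 119, 139 and 173 with KLA in LXR-positive cells, and at 1144, 1233 and 1470.2 and 109.5, 119 and 163 in DKO cells. After Slco2b1 it fell by more than any other member (-3.48 ± 0.18 SE, adjusted p = 1.7e-07, and -3.30 ± 0.18 SE, adjusted p = 3.0e-07). Slc48a1, the lysosomal heme exporter HRG1, rose from 1513, 1385 and 1615 to 4116, 3290.0 and 2744 and from 1193, 1279.5 and 1509.9 to 3398, 3765 and 3353 (1.15 ± 0.14 SE and 1.41 ± 0.14 SE), with 29 exon bases shared with Hdac7 on the opposite strand. Slc52a2, the riboflavin transporter, rose by 0.97 and 0.73, and the DKO call ended without DKO vehicle library 1 or 3 or DKO KLA library 2 or 3, and also with no filter on low values (adjusted p from 0.0550 to 0.124). Slc44a2, a choline transporter-like protein, was called higher in LXR-positive cells (0.63), a call that ended without LXR-positive vehicle library 2 or 3 or LXR-positive KLA library 1 or 3, and also with no filter on low values and in a fit of only the 6 libraries compared (adjusted p from 0.0569 to 0.129). In DKO cells it was not called (0.43) except with the mouse as a block (adjusted p = 0.0281) and without DKO vehicle library 2 (adjusted p = 0.0492).

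Among nucleoside carriers, 1 of 5 was higher (20%) and 2 lower (40%) in each genotype (class median -0.54 and -0.56). Genes at the members' level had 20.6% and 14% in LXR-positive cells and 18% and 13.7% in DKO cells. Slc28a2, which takes up nucleosides with sodium, rose from 448, 293 and 373 to 527, 773 and 838 and from 368, 331 and 245 to 636, 621 and 697 (0.93 ± 0.21 SE and 1.07 ± 0.21 SE). Slc29a1, the equilibrative transporter ENT1 of the cell surface, fell from 364, 412 and 376 to 231, 196 and 241 and from 386, 413 and 365 to 196, 207 and 229.6 (-0.79 ± 0.12 SE and -0.88 ± 0.12 SE). Slc29a3, its lysosomal relative ENT3, was called lower in both (-0.62 and -0.56). Its LXR-positive call ended without LXR-positive vehicle library 3 or LXR-positive KLA library 1 or 3, and also in a fit of only the 6 libraries compared (adjusted p from 0.0525 to 0.0652), and its DKO call without DKO vehicle library 2 or 3 or DKO KLA library 1, 2 or 3, and also with no filter on low values (adjusted p from 0.0532 to 0.0963). Among genes with no substrate assigned, Slc35a4 was called higher in both (0.45 and 0.50). Slc35f5 was called lower in DKO cells (-0.46), a call that ended without LXR-positive vehicle library 3, DKO vehicle library 1, 2 or 3 or DKO KLA library 1 or 3, and also with no filter on low values and with the mouse as a block (adjusted p from 0.0503 to 0.145). In LXR-positive cells it was called only without KLA library 2 (adjusted p = 0.0224). Of the 3 genes sorted as not being carriers, Slc7a6os was called lower in DKO cells (-0.39), and that call ended without LXR-positive vehicle library 1 or 3, LXR-positive KLA library 3, DKO vehicle library 1 or 2 or DKO KLA library 1, 2 or 3, and also with no filter on low values, in a fit of only the 6 libraries compared and with the mouse as a block (adjusted p from 0.0529 to 0.185).

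Promoter sequences were read to show which motifs lie in front of members called in both genotypes. RefSeq windows of GRCm38.p6, the 250 bases before a start, were found for 126 members by symbol, and 113 of them began within 500 bases of the start in the deposited tables. The motifs searched on both strands were the κB element, the AP-1 site (TGANTCA), the interferon-stimulated response element and a PU.1 site (GAGGAAG). A κB match lay in 3 of 21 windows of members higher in both genotypes and in 0 of 13 of those lower in both, against 7.25% of all 32851 windows. An AP-1 match lay in 0 of 21 and 3 of 13, against 6.75% of all windows. The interferon-stimulated element had 0 and 0 matches (2.98% of all windows), and the PU.1 site 3 and 2 (10.6%). The 6 windows below are those with a κB match among the higher and an AP-1 match among the lower members. They are written 5′ to 3′ along the gene's strand, with κB and AP-1 matches in capitals, and a match is a string of letters, not a measured binding site. The Slc26a1 window also holds 1 PU.1 match, left in lower case.
Slc25a1: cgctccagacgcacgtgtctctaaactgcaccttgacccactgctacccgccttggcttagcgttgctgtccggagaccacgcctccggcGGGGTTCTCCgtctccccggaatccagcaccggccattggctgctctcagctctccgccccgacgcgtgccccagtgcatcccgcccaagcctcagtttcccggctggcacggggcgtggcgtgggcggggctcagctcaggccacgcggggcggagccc
Slc25a10: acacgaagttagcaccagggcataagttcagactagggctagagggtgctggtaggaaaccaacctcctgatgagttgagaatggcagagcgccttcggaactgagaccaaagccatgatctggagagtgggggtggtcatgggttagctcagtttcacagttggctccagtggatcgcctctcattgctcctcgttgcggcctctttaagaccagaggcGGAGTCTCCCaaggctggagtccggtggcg
Slc7a7: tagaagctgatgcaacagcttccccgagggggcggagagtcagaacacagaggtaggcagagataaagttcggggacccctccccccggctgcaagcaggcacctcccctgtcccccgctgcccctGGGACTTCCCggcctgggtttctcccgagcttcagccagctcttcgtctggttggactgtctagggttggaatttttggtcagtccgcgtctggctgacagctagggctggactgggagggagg
Slc26a1: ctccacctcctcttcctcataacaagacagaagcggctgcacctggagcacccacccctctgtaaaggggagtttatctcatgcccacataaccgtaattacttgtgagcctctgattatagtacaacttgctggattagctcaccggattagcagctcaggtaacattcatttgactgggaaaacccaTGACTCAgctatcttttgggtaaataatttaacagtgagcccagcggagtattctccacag
Slc37a2: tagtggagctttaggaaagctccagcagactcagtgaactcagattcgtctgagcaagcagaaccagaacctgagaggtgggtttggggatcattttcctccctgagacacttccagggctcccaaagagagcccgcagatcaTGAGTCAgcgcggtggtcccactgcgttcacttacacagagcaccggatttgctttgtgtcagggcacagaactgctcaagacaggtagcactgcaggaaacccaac
Slc9a9: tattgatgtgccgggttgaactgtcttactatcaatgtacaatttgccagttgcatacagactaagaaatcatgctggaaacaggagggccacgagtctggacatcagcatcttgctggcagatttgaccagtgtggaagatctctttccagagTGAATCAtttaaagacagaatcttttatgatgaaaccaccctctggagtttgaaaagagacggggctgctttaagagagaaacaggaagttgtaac

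The κB matches began 160 bases before the start of Slc25a1 (chr16:17928220-17928469, minus strand), 30 before that of Slc25a10 (chr11:120491587-120491836, plus strand) and 124 before that of Slc7a7, an exchanger of cationic and neutral amino acids (chr14:54417703-54417952, minus strand). Slc7a7 was called higher with KLA in both genotypes (0.82 and 0.90). The AP-1 matches began 61 bases before the start of Slc26a1, a sulfate and anion exchanger (chr5:108675366-108675615, minus strand), 107 before that of Slc37a2 (chr9:37255739-37255988, minus strand) and 96 before that of Slc9a9 (chr9:94669642-94669891, plus strand). Slc26a1 was called lower in both genotypes (-0.73 and -0.86). Its LXR-positive call ended without LXR-positive vehicle library 1 or 3 or LXR-positive KLA library 3, and also in a fit of only the 6 libraries compared (adjusted p from 0.0758 to 0.112), and its DKO call without DKO KLA library 3 (adjusted p = 0.0568).

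Members that lie close together were compared for direction in 8 neighbouring pairs within 100 kb. In the pair Slc31a2 and Slc31a1 both genes were called higher in both genotypes. Slc25a43 and Slc25a5 on X (18449 bases apart) were both called higher in LXR-positive cells, and Slc25a5 alone in DKO cells. The call of Slc25a43 ended without LXR-positive vehicle library 2 or LXR-positive KLA library 2 or 3, and also in DESeq2, with no filter on low values, in a fit of all 24 libraries, in a fit of only the 6 libraries compared and with the mouse as a block (adjusted p from 0.0516 to 0.116). Slc7a6, an amino acid exchanger, was called higher in both genotypes (1.08 and 0.78), while Slc7a6os, 2011 bases away on the other strand, had -0.24 and -0.39, called lower in DKO cells alone. Slc29a1 was called lower in both, and Slc35b2, 17531 bases away, in neither (0.03 and 0.14). Slc38a2, which imports glutamine and other neutral amino acids, was called lower in DKO cells alone (0.01 and -0.49), and its neighbour Slc38a1 was called in neither genotype (0.29 and 0.10). The call of Slc38a2 ended without LXR-positive vehicle library 2 or 3, LXR-positive KLA library 3, DKO vehicle library 1 or 2 or DKO KLA library 1, 2 or 3, and also with no filter on low values and in a fit of only the 6 libraries compared (adjusted p from 0.0534 to 0.190). Neither Slc25a15 nor Slc20a2 was called in either genotype. The directions of Slc39a4, near Slc52a2, and of Slc22a4, near Slc22a5, were fixed by how they reached the level, so these 2 pairs were not read for direction. Slc52a2 was called higher in both genotypes and Slc22a5 in neither (0.25 and -0.05).

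Between the genotypes, 0 of 163 members differed in KLA response by limma's interaction test, which called 0.0689% of all genes. At an unadjusted p under 0.05 there were 17 members, or 10.4%, beside 5.8% of genes with a mean of at least 50, and edgeR and DESeq2 called 0 as well. Across the 163 genes the 2 sets of log2 differences, which share no libraries, correlated at Pearson's r = 0.946, beside 0.873 over the 10731 genes with a mean of at least 50. The sign was the same for 134 members, or 82.2%, and for 82.2% of genes at that level. The members' r includes Slco2b1, which lay far below every other member in both genotypes and whose fitted differences depend on the pseudocount. A value of r without it was not computed. These are descriptions across genes measured in the same libraries. Of the members called in LXR-positive cells 63.3% were called in the same direction in DKO cells (68.9% of genes at that level), and of those called in DKO cells 80.7% in LXR-positive cells (75.1%). The smallest interaction p was that of Slc25a1, with a difference in response (DKO minus LXR-positive) of -0.90 ± 0.24 SE (unadjusted p = 0.0025, adjusted p = 0.65). Next came Slc2a3 (0.84 ± 0.27 SE, adjusted p = 0.86) and Slc7a1 (-0.93 ± 0.33 SE, adjusted p = 0.86), so calls in 1 genotype alone were not shown to differ between them. In the authors' deposited table of the same interaction, 0 members had an adjusted p under 0.05 (smallest 0.0987).

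**Figure D3:**
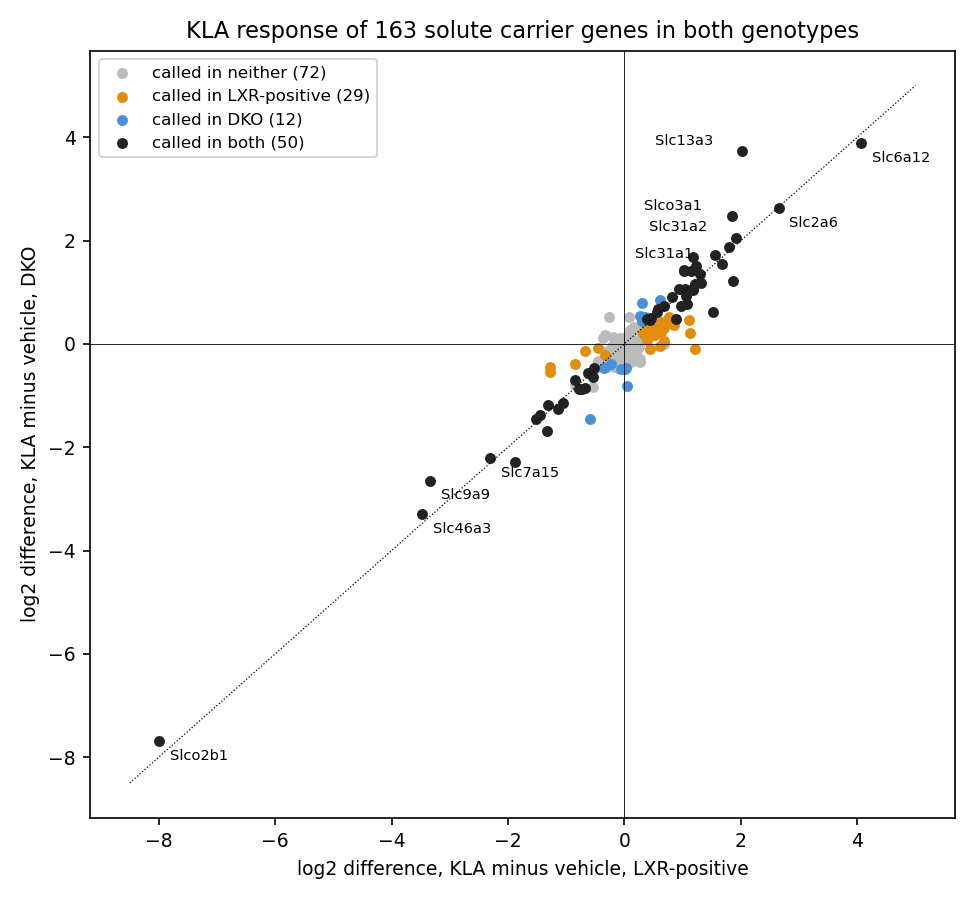
Log2 difference of KLA minus vehicle in LXR-positive (horizontal axis) and DKO macrophages (vertical axis) for 163 solute carrier genes, coloured by where limma called them, with a dotted line of equal values. The 50 genes called in both lie near the line from Slco2b1 at the lower left to Slc6a12 at the upper right, and Slc13a3 lies above it.

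With GW3965 no carrier passed the test in either genotype. In LXR-positive cells limma called 0 of 163 members, where 0.267% of all genes were called, and 12 members had an unadjusted p under 0.05 (7.36%, beside 5.87% of genes with a mean of at least 50). edgeR and DESeq2 also called 0. The smallest p was that of the citrate carrier Slc25a1, which stood at 203, 191 and 242 with vehicle and 349.7, 314 and 338 with GW3965 without overlap (0.66 ± 0.15 SE, adjusted p = 0.19). In DKO cells it stood at 222, 293 and 232 and 212, 286 and 265 (0.03). Slc7a7 had 284, 272 and 336 and 516, 438 and 407 normalized counts, again without overlap (0.61 ± 0.16 SE, adjusted p = 0.30), and 210.4, 196 and 243 and 234, 191 and 282 in DKO cells. The phosphate importer Slc20a1 had 424, 271 and 435 and 506, 547 and 765 (0.69 ± 0.20 SE, adjusted p = 0.38). These 3 were named by their p-values after these were seen.

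In DKO cells limma called 0 members with GW3965 (0.00621% of all genes), 9 had an unadjusted p under 0.05 (5.52%, beside 7.01% of genes with a mean of at least 50), and edgeR and DESeq2 called 0. Slc27a4, a fatty acid transport protein, had the smallest p, at 205, 233 and 212 with vehicle and 266, 303 and 315 with GW3965 (0.44 ± 0.12 SE, adjusted p = 0.80). The GW3965 response differed between genotypes for 0 members in limma, edgeR and DESeq2, where limma called 0.118% of all genes, and 9 members had an unadjusted p under 0.05 (5.52%, beside 4.63%). The smallest adjusted p of a member in the authors' deposited table was 0.394.

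With AcLDL no carrier passed limma's main test, and a few lay close to its threshold. limma called 0 of 163 members in LXR-positive cells (0.225% of all genes called) and 0 in DKO cells (0.125%), with 26 and 20 at an unadjusted p under 0.05 (16% and 12.3%, beside 14.1% and 7.85% of genes with a mean of at least 50). edgeR called 0 in both. DESeq2 called 8 and 3 members (4.91% and 1.84%), beside 2.48% and 0.527% of all genes it gave an adjusted p. limma with the mouse as a block called 6 and 1 (3.68% and 0.613%), beside 1.54% and 0.237% of all genes. The all-gene shares for DESeq2 and the mouse block were not matched to the members in level. The vehicle and AcLDL libraries did not overlap for 25 members higher and 10 lower in LXR-positive cells, 15.3% and 6.13% of them, where 7.97% and 11.8% of genes at the same level did so. In DKO cells these were 16 and 7 members, 9.82% and 4.29%, beside 4.8% and 6.78%. Erythroid and megakaryocyte markers summed to 213 to 313 with vehicle and 532 to 624 with AcLDL in LXR-positive cells and to 318 to 411 and 551 to 688 in DKO cells. Lymphocyte markers were lower with AcLDL in LXR-positive cells (358 to 422 against 191 to 257), as were neutrophil and precursor markers (4630.1 to 4786 against 3602 to 4252). In DKO cells both overlapped, at 217 to 312 and 187 to 242, and at 6477 to 9446 and 6415 to 9265. The part of these cells in the AcLDL values was not tested. The genes named for AcLDL were chosen after their values were seen.

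Slc37a2 stood at 5132, 5086 and 5357 with vehicle and 7354, 7542 and 8235 with AcLDL in LXR-positive cells, and at 5333, 5057 and 4175 and 7834, 6668 and 6405 in DKO cells. All 6 AcLDL libraries exceeded all 6 vehicle libraries, while KLA lowered the same gene. Its log2 differences were 0.57 ± 0.11 SE, adjusted p = 0.068 in LXR-positive and 0.52 ± 0.11 SE, adjusted p = 0.18 in DKO cells, and DESeq2 gave adjusted p = 1.9e-04 and 0.0025. With the mouse as a block limma called it in LXR-positive cells (adjusted p = 0.0171), as it did without DKO vehicle library 3 (adjusted p = 0.0381) and with only the 6 libraries compared (adjusted p = 0.0389). A fit of all 24 libraries called it in both genotypes (adjusted p = 0.0098 and 0.0323). Slc25a13, the aspartate-glutamate carrier, went from 158, 154 and 182 to 279, 230.0 and 279 and from 177, 156 and 141 to 287, 295 and 204 (0.67 ± 0.16 SE and 0.71 ± 0.16 SE; DESeq2 adjusted p = 0.0230 and 0.0153). Slc27a1, the fatty acid transport protein FATP1, had 1079, 1009 and 1076 and 1552, 1205 and 1661 in LXR-positive cells and 1177, 1483 and 1179 and 2069, 2262 and 1924 in DKO cells. Neither genotype overlapped (0.47 and 0.71), and DESeq2 gave adjusted p = 0.0367 and 2.8e-04. The mouse block called Slc25a13 in LXR-positive cells and Slc27a1 in DKO cells (adjusted p = 0.041 and 0.0325).

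Slc13a3 was lower with AcLDL in LXR-positive cells, at 127, 177 and 269 with vehicle and 47.8, 54.9 and 51.1 with AcLDL, but did not pass (-1.81 ± 0.44 SE, adjusted p = 0.14). DESeq2 (adjusted p = 0.0028), the fit of only the 6 libraries compared (adjusted p = 0.0391) and the mouse block (adjusted p = 0.0088) called it. In DKO cells it stood at 93.8, 33.8 and 91.1 and 47.5, 18.7 and 50.2 (-0.88 ± 0.44 SE, adjusted p = 0.80), where the groups overlapped but the AcLDL library was the lower one of each same-numbered pair. Slco3a1 was lower too, at 176, 106 and 210.2 and 57.4, 65.3 and 61.3 (-1.35 ± 0.34 SE, adjusted p = 0.15), and it too was called by DESeq2 (adjusted p = 0.0166) and with the mouse as a block (adjusted p = 0.0280). Slco2b1, which KLA took to near 0, had 388, 577 and 422 with vehicle and 622, 861 and 829.7 with AcLDL (0.74 ± 0.19 SE, adjusted p = 0.16, and 0.0435 with the mouse as a block). DESeq2 called it too (adjusted p = 0.028). Slc5a3 was also called higher by DESeq2 in LXR-positive cells with AcLDL (log2 difference 0.81, adjusted p = 0.043). The AcLDL comparisons share their vehicle libraries with the KLA comparisons. Tested between genotypes, the AcLDL response differed for 0 members in limma, edgeR and DESeq2, with 2 at an unadjusted p under 0.05 (1.23%, beside 3.07%) and 0.025% of all genes called by limma. No member had an adjusted p under 1 in the authors' deposited table of that interaction.

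**Figure D4:**
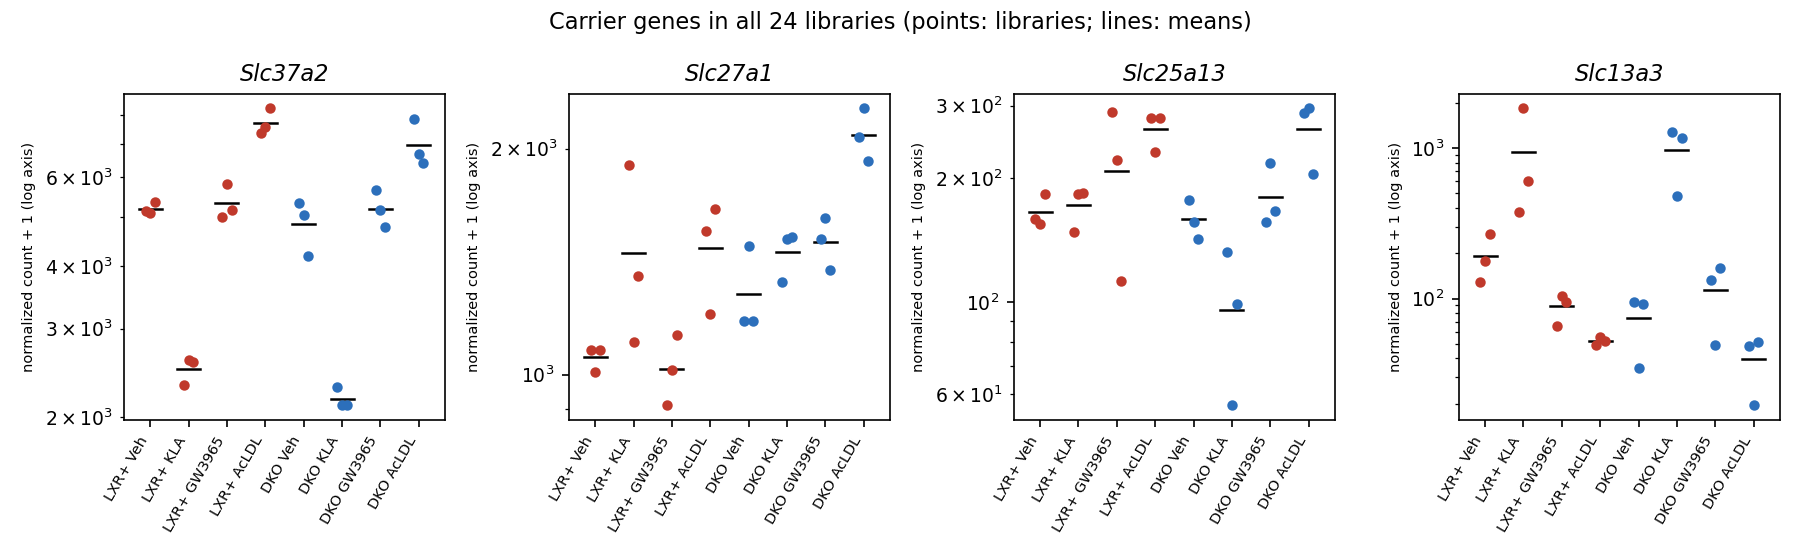
Normalized counts + 1 on a log axis for Slc37a2, Slc27a1, Slc25a13 and Slc13a3 (panels) in all 8 groups of LXR-positive (LXR+, red) and DKO (blue) libraries, with 1 point per mouse and a line at the mean of 3. Slc37a2 is lowest with KLA and highest with AcLDL in both genotypes, and Slc13a3 has its highest mean with KLA and its lowest with AcLDL in both.

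With vehicle alone, limma called 0 of 163 members between DKO and LXR-positive cells (0.316% of all genes called), 28 had an unadjusted p under 0.05 (17.2%, beside 14.4% of genes with a mean of at least 50), edgeR called 0 and DESeq2 4 (2.45%, beside 1.91% of all genes it gave an adjusted p). The all-gene share for DESeq2 was not matched to the members in level. The libraries did not overlap for 5 members higher in DKO and 23 lower, 3.07% and 14.1% of them, beside 5.69% and 13.7% of genes with a mean of at least 50. Slc9a3r1, the scaffold NHERF1, stood at 1485, 1197 and 1536 in LXR-positive and 884, 1021 and 869 in DKO vehicle libraries (-0.60 ± 0.12 SE, adjusted p = 0.071), and was called without LXR-positive vehicle library 2 (adjusted p = 0.0229) and in a fit of all 24 libraries (adjusted p = 0.0102). Slco1a6, an organic anion carrier, stood at 69.0, 98.8 and 73.3 and 127, 127 and 142 (0.72 ± 0.16 SE, adjusted p = 0.11). Slc15a4 had 1224, 913 and 1125 and 732, 752 and 779 (-0.52 ± 0.14 SE, adjusted p = 0.20), and Slc31a2 936, 703 and 989 and 599.8, 538 and 644 (-0.55 ± 0.16 SE, adjusted p = 0.20). These are the 4 genes that DESeq2 called, chosen after their values were seen, and the part of read depth and of the marker sums given above for vehicle libraries was not tested.

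Carrier proteins and partners that go by other symbols were taken from a list of 21 genes, of which 18 were tested. With KLA 3 were higher and 6 lower in LXR-positive cells, and 3 higher and 5 lower in DKO cells. The same rule called 28.6% and 25.2% of all genes tested. The all-gene shares given for this list and for the pumps below were not matched to the listed genes in level. With 1 library left out, 6 to 10 and 6 to 8 were called, where 9 and 8 were with all. In LXR-positive cells 12 were called with the mouse as a block and 11 with all 24 libraries in 1 fit. With only the 6 libraries compared 7 were. All genes had 30%, 29.8% and 22.9% under these settings. In DKO cells the same settings called 8, 8 and 9, beside 26.6%, 26.1% and 28.9% of all genes. Bsg, basigin, the partner that brings monocarboxylate transporters to the membrane, rose by a log2 difference of 1.21 (adjusted p = 0.00013) and 1.18 (adjusted p = 0.00018). Ank, an exporter of pyrophosphate and ATP, fell (-1.91 and -1.79), as did the mitochondrial carrier Ucp2 (-0.76 and -0.64) and the phosphate exporter Xpr1 (-0.45 and -0.50). The heavy chain Slc3a2, a member, was called higher in both genotypes (0.58 and 0.68). Its LXR-positive call ended without LXR-positive vehicle library 1 or 2 or LXR-positive KLA library 1, and also in a fit of only the 6 libraries compared (adjusted p from 0.0727 to 0.112), and its DKO call without DKO vehicle library 1 or DKO KLA library 2 (adjusted p from 0.0598 to 0.0609). Among 12 genes of sodium and calcium pumps, which set the gradients many carriers use, 9 were tested, and 3 were higher and 2 lower in each genotype. Of all genes tested, 28.6% and 25.2% were called. With only the 6 libraries compared 4 and 5 pump genes were called, and with all 24 libraries in 1 fit 6 and 5. Atp2a2, the calcium pump of the endoplasmic reticulum, rose (1.23 and 0.91), as did the sodium pump subunit Atp1b3 (0.91 and 0.45). In DKO cells the call of Atp1b3 ended without DKO vehicle library 3 or KLA library 1 or 2 (adjusted p up to 0.0984). Atp2b1, a calcium pump of the cell surface, fell (-1.32 and -1.07). The other call lower was Fxyd5, a regulator of the sodium pump, in LXR-positive cells (-0.94, adjusted p = 0.030) and Atp2a3, another calcium pump of the endoplasmic reticulum, in DKO cells (-1.01, adjusted p = 0.026). That of Fxyd5 ended without LXR-positive vehicle library 2 or KLA library 2 or 3, with only the 6 libraries compared and with the mouse as a block (adjusted p up to 0.107). That of Atp2a3 ended without DKO vehicle library 1 or 2 or KLA library 1 or 3 (adjusted p up to 0.101). Without DKO KLA library 1, 3 pump genes were called in DKO cells in place of 5.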

How the data were processed

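RNA sequencing measured 24 libraries of mouse bone-marrow-derived macrophages (500 ng RNA, SMARTer stranded total RNA kit, single-end reads of 50 bases), per the labels' protocols. Per the submitters' processing notes the authors used kallisto, DESeq2 and GRCm38. The sources used here give no versions, annotation or strand setting. What the authors deposited is a signal per gene and library, a normalized count, that is, whole gene counts divided by a size factor per library: 100% of values gave whole counts within 0.01 of a count, and vehicle columns were the same in all tables. The log2 fold changes and the p-values, adjusted, that the authors deposited for their interaction test were used only to count their calls.

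The members and lists were chosen with earlier results of these data known. For each treatment, limma 3.58.1 (trend) in R 4.3.3 was fitted on log2(value + 1) to 4 group means of 12 libraries, for genes with at least 10 normalized counts in at least 3 libraries, and adjusted p-values are Benjamini-Hochberg over all genes tested. Values are per library in the order of mice 1, 2 and 3, differences are ± SE, and n = 3 mice per group. The vehicle comparison of genotypes was fitted with the GW3965 libraries. A log2(value + 1) difference understates changes of low genes. Genes were named by a rule: per substrate class, the highest mean and up to 3 called higher and 3 called lower with KLA, and for other comparisons every call, or the 10 smallest adjusted p of an interaction, of which the first few are printed. Others (for KLA Slc15a3, Slc39a14, Slc39a7, Slc25a5, Slc12a7, Slc26a1, Slc7a6, Slc7a7, Slc3a2, Slc25a43 and Slc35b2) were chosen after their values were seen. The results of 2 genes that the rule or the values would name are not reported here.

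Alternatives were edgeR 4.0.16 and DESeq2 1.42.0 on the recovered counts, a pseudocount of 8, no filter, TMM scaling, all 24 libraries in 1 fit, only the 6 libraries compared, the mouse as a block, and each library left out. Same-numbered libraries of a genotype were taken to come from the same mouse, since the design text gives 6 mice and 4 treatments. The titles do not state this, and results given per mouse or with the mouse as a block rest on it. The deviations of such libraries from their groups' means had a median correlation of 0.265 (36 pairs, -0.005 to 0.506, 10732 genes). Exon lengths and overlaps are from GENCODE M21, where 136 of 163 members had the deposited coordinates, and 26 members share exon bases with an opposite-strand gene, whose reads cannot be told apart from theirs without the strand setting.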

Additional observations from a re-analysis of the deposited data

How the results depend on the processing

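The counts of members called with KLA stayed within 1.5 times of 79 (LXR-positive) and 62 (DKO) under every alternative run. They were 78 and 65 in edgeR, where 27.6% and 26.5% of all genes were called, and 82 and 69 in DESeq2, beside 25.1% and 25.2%. With no filter they were 66 and 51 (40.5% and 31.3% of members), beside 13.1% and 10.9% of all 31989 genes then tested. The all-gene shares in this section are over tested genes of any level, while every member had a mean of at least 50. Shares at the members' level were not computed for the alternatives, so these pairs of shares do not compare like with like. With only the 6 libraries compared they were 61 and 62 (37.4% and 38.0%), beside 22.9% and 28.9%. When 1 library was left out they were 62 to 78 and 47 to 69, beside 22.9% to 28.1% and 17.3% to 28.1% of all genes. With the mouse as a replicate block they were 78 and 65, beside 30% and 26.6%. Of 109 KLA calls of named genes, 83 held under every alternative, 26 ended without a single library, 19 ended under another setting and 0 reversed.

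The counts of 0 with AcLDL depended on the setting. In LXR-positive cells they were 8 in DESeq2 (4.91% of members, beside 2.48% of all genes) and 6 with the mouse as a replicate block (3.68%, beside 1.54%). They were 2 with only the 6 libraries compared (1.23%, beside 0.455%) and 1 with all 24 libraries in 1 fit (0.613%, beside 0.392%). With 1 library left out they were 0 to 1 (1 without DKO vehicle library 3, 0.613%, beside 0.351%). In DKO cells they were 3 in DESeq2 (1.84%, beside 0.527%), 1 with all 24 libraries (0.613%, beside 0.152%) and 1 with the mouse block (0.613%, beside 0.237%). With 1 library left out they were 0 to 1 (1 without LXR-positive AcLDL library 2, 0.613%, beside 0.138%). The vehicle comparison of genotypes gave 4 in DESeq2 (2.45%, beside 1.91%) and 1 with all 24 libraries (0.613%, beside 0.439%). It gave 0 to 2 with 1 library left out (2 without LXR-positive vehicle library 2, 1.23%, beside 0.562%). With the replicate number as a block, which pairs no mice across genotypes, it gave 0, beside 0.565% of all genes. The cause of these differences was not tested. GW3965 comparisons and the 3 interactions gave 0 under every alternative run, the mouse block included. With 3 mice per group a member under the threshold is not shown to be unchanged.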
